A study of Saccharomyces cerevisiae with 18 samples.

Results

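Of the 2086 accessible regions (peaks) counted by ATAC-seq in cycling budding yeast, 311 had their centre within 50 kb of a chromosome end, and 304 of those had no transfer RNA (tRNA) gene within 100 bp. These 304 peaks were split by the distance of the peak centre from the end into 98 peaks at 0 to 10 kb, 100 peaks at 10 to 25 kb and 106 peaks at 25 to 50 kb. They were set against the rest of the genome, the 1523 nuclear peaks outside the ribosomal DNA that lay further than 50 kb from both ends and had no tRNA gene within 100 bp. The rule used only position relative to chromosome ends and tRNA genes, so peak number, peak strength and change over the cycle were free to vary. Just inside the limit lay the peak shared by ADH2 and UBP15, centred 49.9 kb from the end with a level of 287, and just outside it a peak at 50.3 kb with a level of 711.

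ATAC-seq marks open DNA by the insertion of sequencing adapters by a transposase. Fixed Saccharomyces cerevisiae cells were taken from a fermenter at 18 successive points of the metabolic cycle of yeast, a self-sustained oscillation between respiratory and reductive metabolism. The labels gave 5 libraries to the Oxidative phase (time points 6 to 10), 5 to Reductive Building (11 to 15) and 8 to Reductive Charging (the first 5 time points and 16, 17 and 18). All groups came from the same kind of culture with no treatment named, the labels name no strain, and the positions are those of the R64 reference.

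Yeast chromosomes end in short telomeric repeats next to X elements and, at some ends, Y′ elements, which are long repeats that encode the YRF1 helicases. Genes close to the ends can be held silent by the Sir proteins, and the subtelomeric regions further in carry small gene families for sugar use, cell wall proteins and metal or vitamin supply. Near-identical copies on different ends are the rule there, and how reads that fit several copies were placed is not given in the sources used here. Levels of the Y′, seripauperin (PAU), COS, maltose, sorbitol, HXT15 and HXT16, THI and SNO or SNZ peaks are therefore uncertain for single copies.

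The libraries held between 21254 and 29314373 counts. In 5 of them (time points 11, 13, 15, 16 and 18) more than 10% of the nuclear peaks had 0 counts, and the other 13 are called well covered below: 5 Oxidative, 2 Reductive Building (12 and 14) and 6 Reductive Charging libraries. With a single library per time point, the time points of a phase served as its replicates, and a p-value reflects how far they scatter within phases and nothing else. The series was collected in 2 batches that the labels do not assign to libraries, so batch and phase cannot be told apart. A level below is the count per kb of peak per 1000000 counts in nuclear peaks outside the ribosomal DNA, averaged over the 13 well-covered libraries with equal weight. CPM is the same count for a whole peak in 1 library, not divided by length.

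Peaks were denser toward the chromosome ends, and the excess lay within 25 kb. The density was 30.6 peaks per 100 kb at 0 to 10 kb (95% Poisson interval 24.9 to 37.3), 20.8 at 10 to 25 kb (17.0 to 25.3) and 13.3 at 25 to 50 kb (10.8 to 16.0), against 14.6 in the rest of the genome (13.9 to 15.3). The intervals of the first and the second zone lay above that of the rest of the genome, and the interval of the third overlapped it. These intervals cover counting error only. Of the 215 nuclear peaks near a tRNA gene that the rule left out, 7 lay within 50 kb of an end. The lengths kept their DNA, so the rule lowered the density of the rest more than that of the zones. Over the 32 ends the densities had an SD of 13.2, 10.7 and 6.38 peaks per 100 kb, and the rest of the genome averaged 14.6 ± 1.81 peaks per 100 kb (SD over 16 chromosomes). An end carried 9.5 ± 3.06 of the peaks (SD, n = 32), with 4 on the right ends of chromosomes III and XIV and 16 on the left end of chromosome V.

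The densest kilobase was the first. A terminal peak, one that includes the last base of the reference chromosome, was present at 30 of 32 ends, and 26 of these 30 had no coding gene whose 5′ end lay within 500 bp, the distance used throughout to link a peak to a gene. The exceptions were the right end of chromosome I, where the nearest peak edge lay 6.94 kb inside, and the left end of chromosome VI. Without the 30 terminal peaks the density at 0 to 10 kb was 21.3 peaks per 100 kb (16.5 to 26.9). With the tRNA rule this interval still lay above that of the rest of the genome. Without that rule the density of the rest fell inside it.

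**Figure D1:**
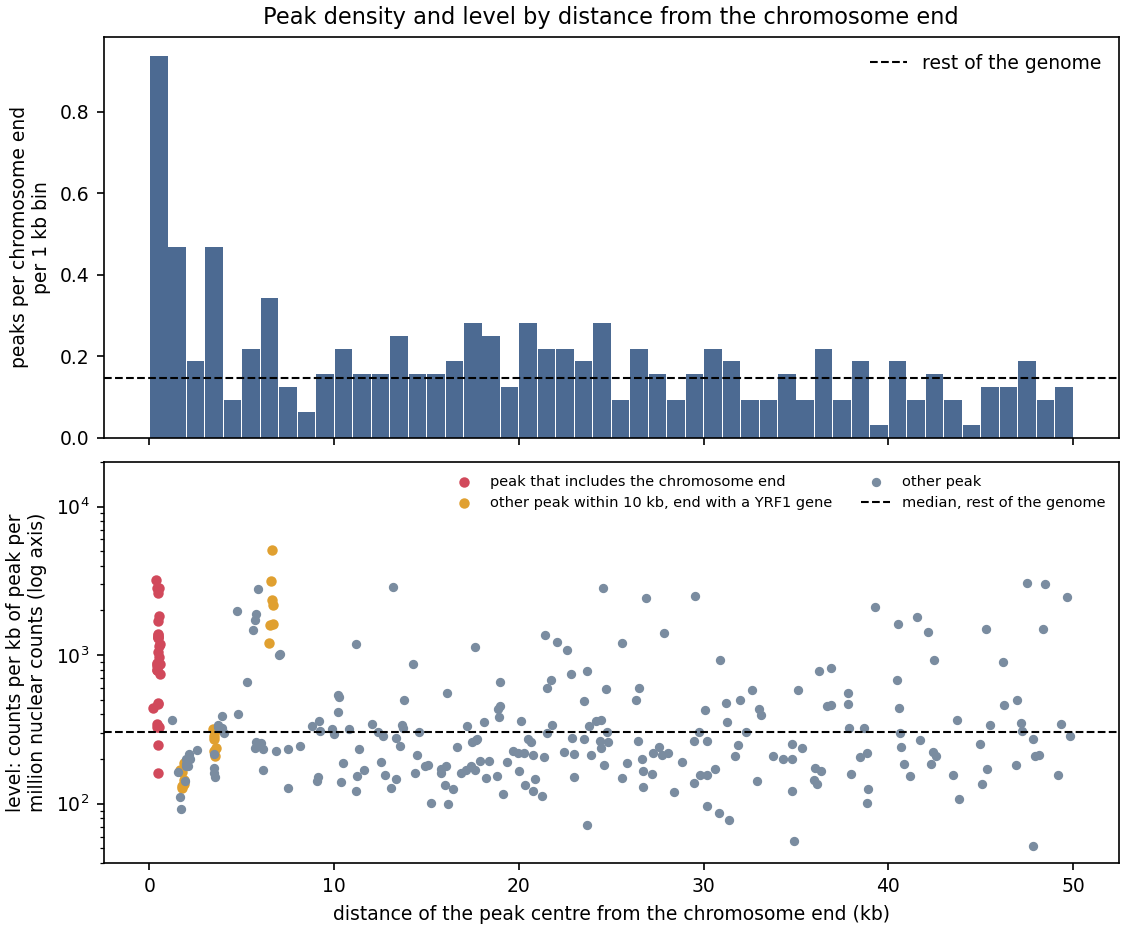
Peaks per chromosome end in 1 kb bins (top) and the level of each of the 304 peaks on a log axis (bottom), both against the distance of the peak centre from the end in kb. Dashed lines give the density and the median level in the rest of the genome, 14.6 peaks per 100 kb and 306; terminal peaks crowd the first bin and a second group of strong peaks lies at 5 to 8 kb.

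Many of the peaks closest to the ends lay away from gene starts. Of the peaks, 43.9% at 0 to 10 kb, 78.0% at 10 to 25 kb and 87.7% at 25 to 50 kb were linked to a coding gene, against 92.4% in the rest of the genome. Gene starts themselves were sparser, with 35.3, 40.6 and 47.5 per 100 kb in the zones and 50.9 in the rest. The share of gene starts with a linked peak was 46.0% (52 of 113), 47.7% (93 of 195) and 37.1% (141 of 380), against 40.8% (2168 of 5314). Peaks linked to genes on both strands made up 4.08%, 16.0% and 31.1% in the zones and 39.2% in the rest.

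Peak strength depended on the position within the last 10 kb. The median level was 328 at 0 to 10 kb, 252 at 10 to 25 kb and 251 at 25 to 50 kb, against 306 in the rest of the genome. The ratio to the rest was 1.07, 0.82 and 0.82. Over the 13 libraries the library medians averaged 338 ± 54.3, 239 ± 42.9 and 261 ± 41.2 in the zones and 317 ± 27.2 in the rest (SD, n = 13). Of the peaks at 0 to 10 kb, 19 of 98 lay above the 90th percentile of the rest, and 3 of 100 and 12 of 106 did so in the zones further in.

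The 30 terminal peaks had a median level of 930, 3.04 times that of the rest. Their levels ranged from 161 on the right end of chromosome XI to 3203 on the left end of chromosome XII. How reads from repeated end sequences were placed is not given, so these levels, like those of the Y′ peaks, are uncertain. The part of copy number in them was not tested. The 39 other peaks at 1 to 5 kb had a median level of 201 and the 22 peaks at 5 to 8 kb one of 1108. The 7 peaks at 8 to 10 kb had a median of 308. These windows within 10 kb were not among the zones set in advance, so contrasts between them only describe these data. Without the terminal peaks the ratio of the zone 0 to 10 kb to the rest was 0.77 instead of 1.07.

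The strong peaks at 5 to 8 kb included those at the starts of the Y′ helicase genes. The reference holds 8 YRF1 genes on 7 ends (IV right, V right, VII right, XII right with a pair of copies, XIV left, XV right and XVI left). Each of these 7 ends had exactly 4 peaks in the last 10 kb, at matching positions. After the terminal peak came one at 1.66 to 1.89 kb with a level of 127 to 188, one at 3.41 to 3.59 kb with 208 to 318, and one at 6.47 to 6.68 kb with 1202 to 5076. Neither of the middle peaks was linked to a gene, since both lay inside the helicase gene, whereas the innermost one was linked to the 5′ end of a YRF1 gene on 6 of the 7 ends and to YER188C-A and YER189W on V right. The XII right end had a further peak of this kind at 13.2 kb, linked to YLR462W, with a level of 2877.

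Among the 25 other ends, 8 also had a peak in each of the windows 1 to 3, 3 to 5 and 5 to 8 kb. Their strongest peak at 5 to 8 kb had a level between 234 on V left and 2802 on II left, with a median of 1246. These 8 ends were picked for having a peak in every window, and over all 15 peaks at 5 to 8 kb on the 25 ends the median level was 260, or 0.85 of that of the rest of the genome. Whether these ends carry Y′ sequence in the sampled strain was not tested.

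**Figure D2:**
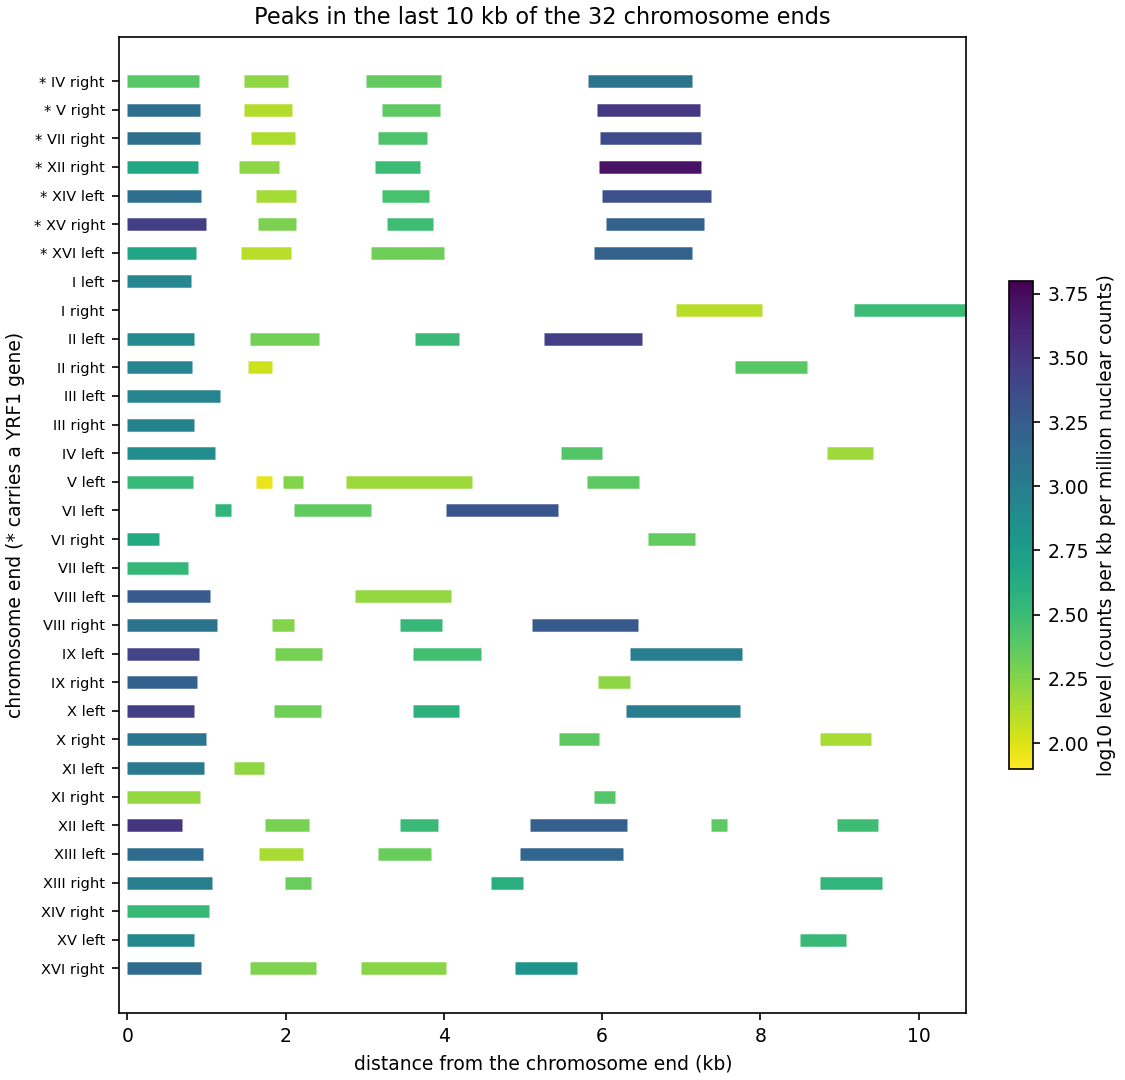
Position and length of the peaks centred in the last 10 kb of each of the 32 chromosome ends, coloured by log10 level. The 7 ends with a YRF1 gene (marked with a star, at the top) show the same 4 peaks, with levels of 1202 to 5076 for the innermost.

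The strongest peaks at 0 to 10 kb were that of YRF1-5 on XII right (5076; XII:1070924-1072219), the terminal peak of XII left (3203), the YER189W peak on V right (3170), and the terminal peaks of X left (2847) and XV right (2841). At 10 to 25 kb they were the YLR462W peak (2877), the peaks of STL1, a glycerol importer (2817), and JEN1, the lactate and pyruvate importer (1376), and peaks linked to no gene on IX (1225) and XII (1181). At 25 to 50 kb they were those of GDH1, a glutamate dehydrogenase (3075), RPL2A, a large ribosomal subunit protein (3033), YCT1, a cysteine transporter (2516), VMA6 and RPL6B, a vacuolar ATPase subunit and a ribosomal protein (2459), and AQY1, an aquaporin of spores (2405).

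The silent mating loci, HML and HMR on chromosome III, are the classical targets of Sir silencing and lie 13.0 to 23.1 kb from the ends. None of their 4 genes had a linked peak. The nearest peak to HMLALPHA1 lay 3091 bp away, at CHA1 and VAC17, and the nearest to HMRA1 lay 985 bp away. That last peak (level 444) overlaps a tRNA gene and so is not among the 304, of which the nearest, at GIT1, lay 4567 bp from HMRA1. A missing peak says only that none was called.

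Subtelomeric gene families differed in how often their starts had a peak, where 41.6% of all 688 gene starts within 50 kb had one. Only 4 of 19 PAU genes, which encode small cell wall mannoproteins, and 1 of 11 COS genes, which encode membrane proteins that help sort cargo into the vacuole, had a linked peak, with levels of 111 to 214. The same held for 4 of 15 flocculin and cell wall genes (DAN4, DSE4, HPF1 and FIT2, but none of FLO1, FLO5, FLO9, FLO10 and FLO11), 6 of 21 iron and metal uptake genes and 3 of 11 alcohol and aldehyde genes. By contrast 28 of 31 genes for the transport and use of sugars and other carbon sources had one, as did 9 of 11 vitamin genes, 7 of 8 stress genes and 8 of 8 ribosomal protein genes. Phosphate genes had one at 3 of 5 and sulfur and amino acid genes at 6 of 11. Some genes share a peak, so the 28 sugar genes had 23 distinct peaks and the 9 vitamin genes 7. The part of read placement among near-identical copies in these counts was not tested.

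The end peaks took a steady share of the nuclear counts. In the well-covered libraries the 304 peaks held 16.0 ± 0.84% in Oxidative (n = 5), 16.3 ± 3.52% in Reductive Building (n = 2) and 16.1 ± 0.84% in Reductive Charging (n = 6; means ± SD). The Reductive Building libraries were the extremes of all 13, with 18.8% at time point 12 and 13.8% at time point 14.

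The level of each zone was followed as the mean log2 level of its peaks minus that of the rest of the genome in the same library, as a description with no test. At 0 to 10 kb it was 0.84 ± 0.33 in Oxidative, 0.93 ± 0.58 in Reductive Building and 0.73 ± 0.36 in Reductive Charging. At 10 to 25 kb it was −0.55 ± 0.14, −0.51 ± 0.03 and −0.54 ± 0.16 in the same order, and at 25 to 50 kb −0.16 ± 0.09, 0.01 ± 0.27 and −0.28 ± 0.06 (SD, n = 5, 2 and 6). The phases therefore overlapped within their spread at 0 to 10 and at 10 to 25 kb. At 25 to 50 kb the Oxidative libraries gave -0.22, -0.23, -0.11, -0.21 and -0.03 (time points 6 to 10), the Reductive Building libraries 0.19 and -0.18 (12 and 14), and the Reductive Charging libraries -0.20, -0.28, -0.36, -0.32, -0.20 and -0.32 (1 to 5 and 17), so these phases overlapped too.

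Within the last 10 kb the peaks did not move together. The terminal peaks averaged 2.03 in Oxidative, 2.10 in Reductive Building and 2.16 in Reductive Charging on this scale, while the peaks at 1 to 5 kb, most of them weak, differed between early and late time points. At 1 to 5 kb the values were -0.70, -1.44, -0.11, -0.17 and -0.03 in Oxidative (time points 6 to 10), -0.04 and -0.60 in Reductive Building (12 and 14) and -0.79, -0.87, −1.0, -0.72, -1.40 and -0.32 in Reductive Charging (1 to 5 and 17). Time points 1 to 7 thus lay between −1.44 and −0.70 and later ones between −0.60 and −0.03, a step that ran through the Oxidative phase and through Reductive Charging. Time points 1 to 7 were set apart only after this step was seen. Among them the peaks at 1 to 5 kb averaged -1.07 in Oxidative (n = 2) and -0.96 in Reductive Charging (n = 5). The whole zone 0 to 10 kb averaged 0.60 in Oxidative, from values of 0.91 and 0.30, and 0.60 in Reductive Charging. Nuclear counts ran from 2073443 to 8880944 at time points 1 to 7 and from 2882700 to 12477489 at the later well-covered ones. The batch of each library is not given, and its part in the step was not tested.

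**Figure D3:**
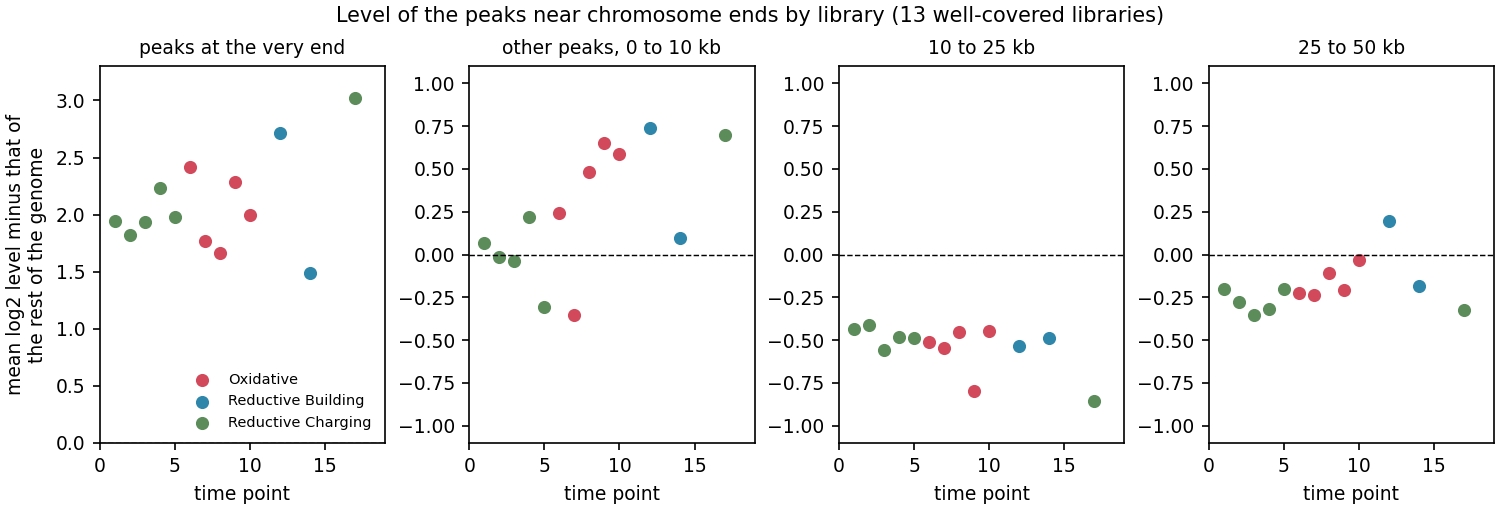
Mean log2 level of terminal peaks, other peaks at 0 to 10 kb, and peaks at 10 to 25 and 25 to 50 kb, minus that of the rest of the genome, for each of the 13 well-covered libraries by time point; the first panel has its own vertical axis. Terminal peaks lie 1.49 to 3.02 above the rest. The other peaks at 0 to 10 kb lie higher at time points 8 to 10, 12 and 17 than at 1 to 7. Time point 14, at 0.09, lies within the range of time points 1 to 7 (-0.35 to 0.24).

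Peak by peak, each phase comparison was fitted with edgeR's quasi-likelihood test on all 2086 peaks with Benjamini-Hochberg adjustment, and a peak was called at an adjusted p under 0.05. With all 18 libraries 0 of 304 end peaks were called in any of the 3 comparisons, where 0% of all peaks were. At an unadjusted p under 0.05 that fit gave 4 end peaks for Oxidative minus Reductive Charging (1.32%, against 2.49% of all peaks), 21 for Reductive Building minus Reductive Charging (6.91% against 7.14%) and 21 for Reductive Building minus Oxidative (6.91% against 4.84%). Of the last 21, 11 were among the 30 terminal peaks. DESeq2 called 0, 0 and 1 end peaks, where it called 0%, 0.431% and 0.623% of all peaks. The values that follow are from the 13 well-covered libraries.

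Oxidative and Reductive Charging differed at 3 end peaks, 2 higher and 1 lower in Oxidative, or 0.987% of 304, where 2.78% of all peaks were called (1.49% higher and 1.29% lower). The peak at the start of SBP1, which encodes an RNA-binding repressor of translation (VIII:34431-35084, 34.8 kb from the end), had 132, 148, 462, 525 and 298 CPM at Oxidative time points 6 to 10, against 47.3, 97.9, 56.4, 35.8, 103 and 144 at Reductive Charging time points 1 to 5 and 17. All Oxidative libraries but time point 6 stood above all of these Reductive Charging libraries, time point 7 only just. The log2 difference was 1.91 ± 0.45 (SE; adjusted p = 0.0426).

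A peak linked to no gene on the left arm of chromosome XV (XV:8504-9078, 8.79 kb from the end) had 145, 229, 373, 279 and 438 CPM in the Oxidative libraries, against 105, 134, 60.2, 96.6, 149 and 125 in Reductive Charging. Only time point 6 fell within the Reductive Charging range, and the log2 difference was 1.35 ± 0.33 (adjusted p = 0.0426). The STL1 peak (IV:1506865-1507862, 24.6 kb) was the one that fell, with 3015, 2427, 1744, 1719.9 and 1676 CPM in Oxidative, against 3099, 3408, 3834, 3343, 3468 and 3199 in Reductive Charging. All Oxidative libraries lay below all well-covered Reductive Charging libraries, and the log2 difference was −0.71 ± 0.17 (adjusted p = 0.0426). The 3 calls ended together when any of time points 1 to 5 or 8 to 10 was left out, with adjusted p between 0.0618 and 0.140, while the sign stayed. Those fits called 0.192% to 0.575% of all peaks, against 2.78% with the 13 libraries. Scaling by total counts also ended the STL1 call (adjusted p = 0.462).

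Next in order of p, and not past the threshold, were the shared peak of SCW10, a cell wall protein, and FKS3 (0.93 ± 0.26, adjusted p = 0.0583), that of HO, the mating-type switching endonuclease (1.05 ± 0.33, 0.0966), and that of NIT1, a nitrilase (1.55 ± 0.50, 0.111) among the higher ones. Among the lower ones were JEN1 (−0.77 ± 0.21, 0.0523), HXK1, a hexokinase (−0.64 ± 0.18, 0.0660), and AQY1 (−0.49 ± 0.14, 0.0713).

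Reductive Building and Reductive Charging differed at 1 end peak, or 0.329% of 304, where 1.44% of all peaks were called (0.671% higher and 0.767% lower). It was that of DSE4, a glucanase that frees the daughter cell from its mother (XIV:759102-759903, 24.8 kb). It had 45.8 and 66.3 CPM at Reductive Building time points 12 and 14, against 215, 261, 231, 288, 345 and 84.7 at Reductive Charging time points 1 to 5 and 17. Both Reductive Building libraries lay below all of these, with time point 17 nearest, and the log2 difference was −2.07 ± 0.48 (adjusted p = 0.0413). The poorly covered Reductive Building libraries had 262, 302 and 0 CPM at time points 11, 13 and 15, of which the first pair lay within the Reductive Charging range. Leaving out any of time points 1 to 5, 6, 8 or 9 ended the call, in fits that called 0.144% to 1.15% of all peaks. Without time point 12 only 1 Reductive Building library was left.

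No other end peak passed in that comparison. The smallest p-values among the higher ones were at GIT1, a glycerophosphoinositol importer (1.32 ± 0.45, adjusted p = 0.196), an unlinked peak on V at 17.7 kb (2.87 ± 0.99, 0.203) and BDH1, a butanediol dehydrogenase (1.63 ± 0.62, 0.253). Among the lower ones they were at HPF1, a cell wall mannoprotein (−1.33 ± 0.39, 0.140), an unlinked peak on VIII at 30.9 kb (−0.80 ± 0.25, 0.172) and VMA6 and RPL6B (−0.81 ± 0.26, 0.178).

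Reductive Building and Oxidative differed at 2 end peaks, or 0.658% of 304, where 1.49% of all peaks were called (0.575% higher and 0.911% lower). The peak shared by BAT2, the cytosolic branched-chain aminotransferase, and HMS2 (X:704661-705663, 40.6 kb) had 499 and 1214 CPM at Reductive Building time points 12 and 14, against 262, 408, 298, 201 and 214 in Oxidative. The Reductive Building libraries lay above all Oxidative ones, and time point 14 stood far above time point 12. The poorly covered Reductive Building libraries had 276, 144 and 3122 CPM at time points 11, 13 and 15, of which the first lay within the Oxidative range, the second below it and the third above it. The log2 difference was 1.66 ± 0.36 (adjusted p = 0.0239), and without time point 14 it was 0.84 (adjusted p = 0.285). The call also ended without time point 8, 9 or 10, in fits that called 0.719% to 1.25% of all peaks.

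The DSE4 peak was again the one that fell, with 45.8 and 66.3 CPM in Reductive Building, against 167, 366, 278, 189 and 169 in Oxidative (−2.02 ± 0.49, adjusted p = 0.0459). Leaving out any of time points 1 to 5, 8 or 9 ended this call, in fits that called 0.719% to 1.2% of all peaks. Without time point 12 or 14 only 1 Reductive Building library was left. Both DSE4 comparisons share the Reductive Building libraries. Next in order of p among the higher peaks came SNO4 and ERR3 (1.42 ± 0.35, 0.0507), HXK1 (0.89 ± 0.24, 0.0626) and JEN1 (0.94 ± 0.27, 0.0847), and among the lower ones SBP1 (−2.88 ± 0.73, 0.0507), RPL2A (−1.12 ± 0.30, 0.0621) and RPL6B (−0.98 ± 0.27, 0.0683). None of these passed.

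**Figure D4:**
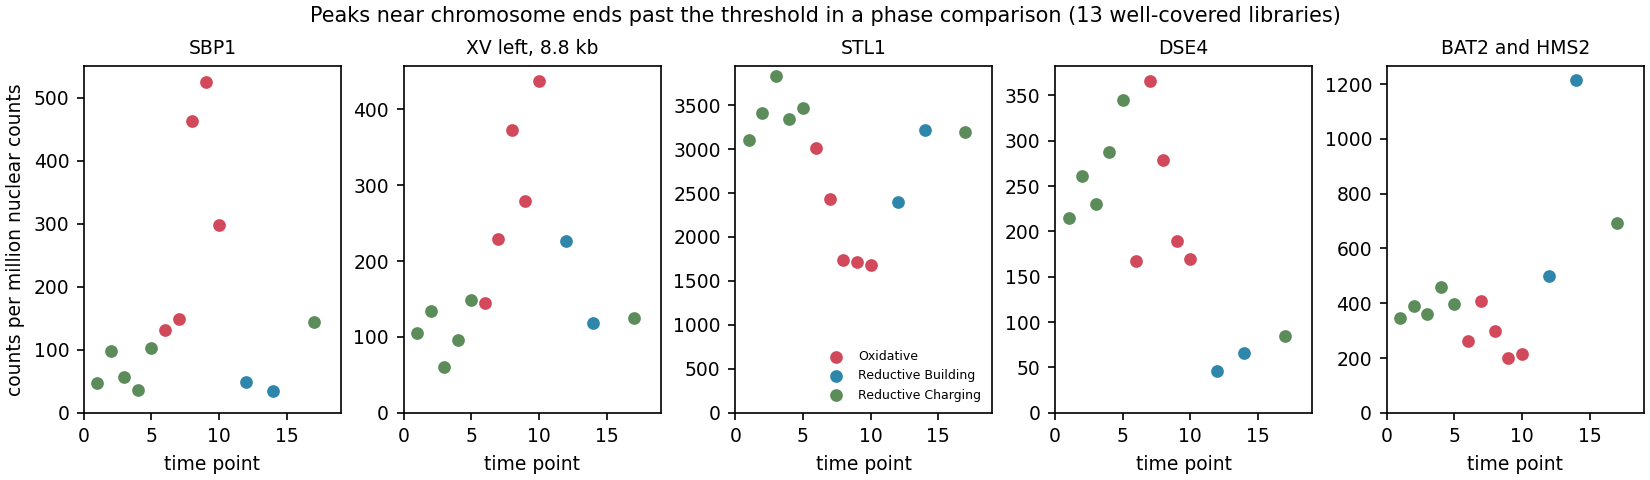
CPM by time point at the 5 end peaks past the threshold in a phase comparison, in the 13 well-covered libraries, each panel with its own vertical axis from 0. SBP1 and the XV peak are highest in late Oxidative libraries, STL1 is lowest there, DSE4 is lowest at time points 12 and 14, and BAT2 is highest at time point 14.

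At an unadjusted p under 0.05 the shares were 15.5% of end peaks against 16.5% of all peaks for Oxidative minus Reductive Charging, 8.55% against 13.8% for Reductive Building minus Reductive Charging, and 10.5% against 15.5% for Reductive Building minus Oxidative. In these 13 libraries the share among end peaks was below that of the whole table in each comparison, whereas with all 18 libraries it was above it for Reductive Building minus Oxidative.

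Fold changes were also summarised by zone. For Oxidative minus Reductive Charging the median log2 difference was 0.10 at 0 to 10 kb, −0.02 at 10 to 25 kb and 0.18 at 25 to 50 kb, against 0.01 in the rest of the genome. For Reductive Building minus Reductive Charging it was 0.18, 0.11 and 0.22 in the zones and −0.00 in the rest, and for Reductive Building minus Oxidative 0.03, 0.12 and 0.10 in the zones and −0.00 in the rest. The comparisons share libraries. The 30 terminal peaks had medians of −0.11, −0.03 and 0.15 in these comparisons, with 0 called. The 39 peaks at 1 to 5 kb had a median of 0.58 for Oxidative minus Reductive Charging, 33 of them above the median of all peaks, and 0.56 for Reductive Building minus Reductive Charging, 36 of them above it, with 0 called. For Reductive Building minus Oxidative their median was −0.06, with 11 of 39 above it, while the difference of their mean levels relative to the rest was 0.17. At an unadjusted p under 0.05, 10 were higher and 1 lower in the first comparison (28.2%, against 16.5% of all peaks). In the second, 1 was higher and 0 lower (2.56% against 13.8%), and in the third 2 and 0 (5.13% against 15.5%). The step between time points 7 and 8 at these peaks, given above, lies inside the Oxidative phase.

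**Figure D5:**
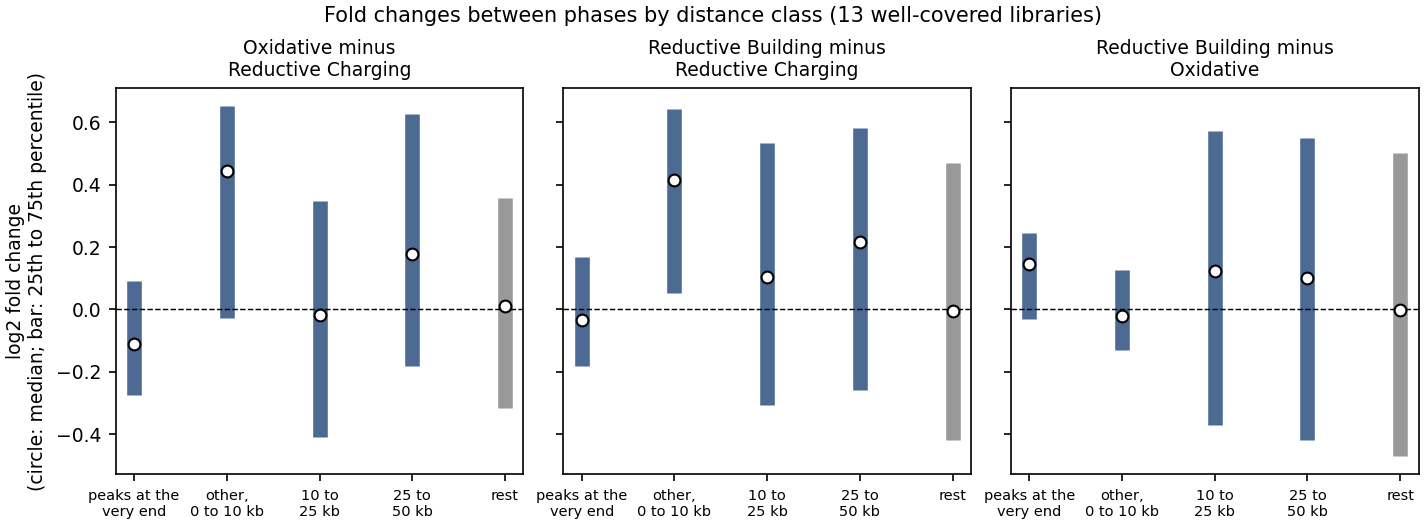
Median log2 fold change (circle) and the range from the 25th to the 75th percentile (bar) of the peaks in each distance class, for the 3 phase comparisons in the 13 well-covered libraries. Peaks at 0 to 10 kb other than terminal ones have medians of 0.44 and 0.42 against Reductive Charging, and the terminal peaks −0.11 and −0.03.

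Peaks also differed in how much they varied between libraries of one phase. The median SD of the log2 level between Oxidative libraries was 0.46 at 0 to 10 kb, 0.63 at 10 to 25 kb and 0.60 at 25 to 50 kb, against 0.53 in the rest. Between Reductive Charging libraries it was 0.33, 0.63 and 0.59, against 0.49. Terminal peaks had values of 0.36 and 0.34, and the other peaks at 0 to 10 kb 0.49 and 0.33.

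The gene lists were described by their counts relative to the median of all peaks, since total-count scaling moves that median from 0.02 to 0.52 for Oxidative minus Reductive Charging. Of the 23 distinct peaks linked to genes for sugar and carbon source use, 0 were called, and 2 lay above the median of all peaks for Oxidative minus Reductive Charging, with a median log2 difference of −0.51 where that of all peaks was 0.02. For Reductive Building minus Oxidative 20 of 23 lay above it (median 0.45, all peaks 0.02), and for Reductive Building minus Reductive Charging 14 of 23 (0.09, all peaks 0.03). With all 18 libraries the first count was 1 of 23, with a median of −0.35 where that of all peaks was 0.14, the second was 16 of 23 (0.09, all peaks −0.22), and the third was 5 of 23 (−0.50, all peaks −0.10), mostly below that median where the 13 libraries gave mostly above. The mean log2 level of these 23 peaks minus that of the rest of the genome was 0.41, 0.30, 0.07, -0.33 and 0.09 at Oxidative time points 6 to 10, 0.42 and 0.61 at Reductive Building time points 12 and 14, and 0.56, 0.67, 0.66, 0.70, 0.62 and 0.90 at Reductive Charging time points 1 to 5 and 17. The Oxidative values all lay below those of Reductive Charging, with the lowest at time point 9. Many members are near-copies of each other (the IMA isomaltases, HXT15 and HXT16, SOR1 and SOR2), so they are not independent.

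Among single members, the HXK1 and JEN1 peaks, named for their small p, also had their lowest mean in Oxidative. Their mean CPM was higher in Reductive Building than in Reductive Charging (1994 against 1640 and 2972 against 2619). The mean log2 level of the 23 peaks was instead lower there, at 0.51 against 0.69. The HXK1 peak had 1216, 1402, 924, 839 and 1107 CPM in Oxidative, 1641 and 2346 in Reductive Building and 1563, 1450.2, 1606, 1347, 1667 and 2207 in Reductive Charging. The JEN1 peak had 2106, 2002, 1337, 846 and 1677 in Oxidative, 3121 and 2822 in Reductive Building and 2685, 2329.9, 2775, 2245, 2391 and 3285 in Reductive Charging. SUC2, the invertase, had a log2 difference of −0.34 ± 0.22 for Oxidative minus Reductive Charging (adjusted p = 0.486) and 0.81 ± 0.30 for Reductive Building minus Oxidative (0.186).

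The 8 ribosomal protein peaks, all at 25 to 50 kb, had a median level of 1161. Of these, 7 lay above the median of all peaks for Oxidative minus Reductive Charging (median 0.20), 1 for Reductive Building minus Reductive Charging (−0.25) and 1 for Reductive Building minus Oxidative (−0.54), with 0 called. With all 18 libraries the counts were 5, 3 and 0. The RPL2A peak had 2009, 1913, 4131, 2929.9 and 3013 CPM in Oxidative, 1282 and 1249 in Reductive Building and 1415, 1547, 1713, 1822, 2101 and 2078 in Reductive Charging, so the Reductive Building libraries were the lowest and the later Oxidative ones the highest.

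Of the 7 stress gene peaks, which include HSP31, AQY1 and GRE2, 0 lay above the median of all peaks for Oxidative minus Reductive Charging (median −0.49), 3 for Reductive Building minus Reductive Charging and 4 for Reductive Building minus Oxidative. With all 18 libraries the counts were 0, 2 and 3. Of these 7 peaks, 3 are also in the sugar list, since SNO4, HSP33 and HSP32 share a peak with ERR3, ERR1 and ERR2. The 6 sulfur and amino acid peaks all lay above it in the first comparison, though by little (median 0.17), and 4 did so in each of the others. The 7 vitamin peaks (THI5, THI11, THI12, THI13, SNO2 and SNZ2, SNO3 and SNZ3, BIO2) had levels of 122 to 214 except for BIO2, a biotin synthase, at 1205. Their medians were 0.04, 0.53 and 0.26 in the comparisons in that order. With all 18 libraries they were 0.20, 0.23 and −0.29, where those of all peaks were 0.14, −0.10 and −0.22. Their mean log2 level minus that of the rest of the genome was 0.21 and −0.65 at Reductive Building time points 12 and 14. It ran from −0.79 to −0.30 in Oxidative and from −1.18 to −0.41 in Reductive Charging. The 6 YRF1 peaks lay 3.79 ± 0.36, 3.86 ± 1.04 and 3.89 ± 0.56 above the rest of the genome on the log2 scale in Oxidative, Reductive Building and Reductive Charging (SD, n = 5, 2 and 6), with median differences of −0.04 for Oxidative minus Reductive Charging, 0.04 for Reductive Building minus Reductive Charging and 0.09 for Reductive Building minus Oxidative. With all 18 libraries these were 0.06, 0.76 and 0.72, and in the comparisons with Reductive Building 6 of 6 lay above the median of all peaks. Of the flocculin and cell wall list only the DSE4 peak was called. The lists for sugar, stress and ribosomal proteins were known from earlier results of these data, so their direction is no independent evidence.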

How the data were processed

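The authors deposited raw counts per peak for 1 list of 2086 peaks in 18 libraries. Per the submitters' processing notes, Trimmomatic, Bowtie2, MACS2 and build R64 were used; their versions and the way reads were counted, deduplicated, shifted or multiply placed, and any pooling before peak calling, were not given in the sources used here. Retained duplicates or multiply placed reads would make counts less independent. All count columns matched a sample.

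Chromosome lengths were taken from the last peak on 15 of 16 chromosomes, where it reaches the R64 end, and from the assembly for chromosome I. Genes came from RefSeq's R64 table, with strand from systematic names. Fits used edgeR 4.0.16 (quasi-likelihood F test, TMM scaling, filterByExpr, robust dispersion; R 4.3.3), and the Benjamini-Hochberg adjustment ran over all peaks, with calls at 0.05. The fits pooled the spread of the phases. They were also run on simulated counts drawn as independent libraries from the fitted spread. Such counts cannot show how ordered time points or batches affect the fits. A standard error is the fold change divided by the root of F. Zone and list levels used log2 values with a prior count of 2. All 18 libraries and the 13 with at most 10% of nuclear peaks at 0 were fitted. Alternatives were other scalings, filters, DESeq2 1.42.0, limma 3.58.1 with voom and library weights, and leaving out each library. Settings without terminal peaks and within time points 1 to 7 or 8 to 18 were chosen after seeing the data. The windows inside 10 kb were not set in advance either. Named peaks were up to 8 past the threshold per direction, the 3 with the smallest p where fewer than 3 passed, and the 5 strongest per zone. Members, lists and the set of 13 libraries were chosen with earlier results of these data known. Plots used matplotlib 3.10.9.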

Additional observations from a re-analysis of the deposited data

Results flagged for a closer look

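Of 40 phase groups of values examined, 5 held a library far from the others of its phase, where chance flags about 1 in 20 groups. The groups share libraries and peaks, so the 5 flags are not independent and cannot be weighed against that rate. Time point 17 accounted for 3 of them within the well-covered Reductive Charging libraries: its level at 10 to 25 kb relative to the rest of the genome was −0.86 (group median −0.48), that of the terminal peaks was 3.02 (median 1.96), and its BAT2 and HMS2 peak had 694 CPM (median 394). Among Oxidative libraries, time point 9 had the lowest level at 10 to 25 kb, −0.79 (median −0.51). Over all 18 libraries the STL1 peak had 10512 CPM at time point 16 (Reductive Charging median 3438), the library with 9228 nuclear counts.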

How the results depend on the processing

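With all 18 libraries, the number of end peaks called for Oxidative minus Reductive Charging was 6 under limma-voom with library weights (4.79% of all peaks), and for Reductive Building minus Oxidative it was 1 under DESeq2 (0.623%). With 13 libraries, Oxidative minus Reductive Charging gave 10 under total-count scaling (5.47% of all peaks), 5 under the stricter filter (4.04%), 13 under DESeq2 (6.14%) and 12 under limma-voom (7.48%); Reductive Building minus Reductive Charging gave 0 (0.719%) under total-count scaling, 2 (2.64%) under DESeq2 and 0 (0.0959%) under limma-voom. Reductive Building minus Oxidative gave 0 (0%) under total-count scaling, 7 (2.71%) under the stricter filter, 8 (4.99%) under DESeq2 and 0 (0%) under limma-voom. Leaving out one library moved these counts between 0 and 7, 0 and 14, and 0 and 11 with 13 libraries, and between 0 and 0, 0 and 6, and 0 and 2 with 18. The share of all peaks called in the 13-library fits moved as well, from 0.192% to 5.7% for Oxidative minus Reductive Charging. Where both Reductive Building libraries stayed, it ran from 0.144% to 2.4% for Reductive Building minus Reductive Charging. There it ran from 0.719% to 4.51% for Reductive Building minus Oxidative. The end-peak ranges also include the fits that left 1 Reductive Building library. Without time point 14 the 18-library counts were 6 against Reductive Charging (1.77% of all peaks) and 2 against Oxidative (1.73%) for Reductive Building. Total-count scaling moved the median of all peaks to 0.52 and 0.49 against Reductive Charging, from 0.02 and 0.03. The density of the rest was 16.6 per 100 kb with no tRNA rule. That lies inside the interval at 0 to 10 kb without terminal peaks (16.5 to 26.9). It lies just below the interval at 10 to 25 kb with the rule (17.0 to 25.3). The strength ratio at 25 to 50 kb was 0.90 when not per kb, and at 0 to 10 kb it was 0.77 without terminal peaks. Zone differences at 0 to 10 kb were −0.37 (Oxidative minus Reductive Charging), 1.07 (Reductive Building minus Reductive Charging) and 1.45 (Reductive Building minus Oxidative) with all 18 libraries, and −0.41 and −0.48 against Reductive Charging within time points 8 to 18, where Reductive Charging had 1 library. At 10 to 25 kb they were 0.29 and 0.35 there, and 0.15 by medians. At 25 to 50 kb they were 0.21 there for Oxidative, 0.0050 and −0.057 by summed counts and −0.11 and −0.23 with all 18 libraries for Reductive Building minus Reductive Charging and minus Oxidative. The cause was not tested. Leave-one-out ranges for the 3 comparisons were 0.04 to 0.25, −0.21 to 0.61 and −0.32 to 0.50 at 0 to 10 kb, −0.08 to 0.05, −0.04 to 0.05 and −0.02 to 0.06 at 10 to 25 kb, and 0.09 to 0.14, 0.10 to 0.47 and −0.021 to 0.35 at 25 to 50 kb. Over all settings tried on the 6 calls, 67 kept the call, 53 ended it and 0 turned its direction. Without time point 12 or 14 the 13-library set has 1 Reductive Building library, taken to vary like the other groups. The 5 poorly covered libraries hold 9228 to 1960004 nuclear counts, and how far depth limits the 18-library fit was not tested. No paired analysis was possible because each time point has 1 library and the labels carry no replicate numbers.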

Other observations

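The 5 poorly covered libraries gave larger values at the terminal peaks than the well-covered ones. Their terminal peaks lay 4.46, 3.58 and 8.91 above the rest of the genome at Reductive Building time points 11, 13 and 15. At Reductive Charging time points 16 and 18 these values were 4.95 and 3.75. At time points 11, 13, 15, 16 and 18 the peaks at 5 to 8 kb gave 3.61, 2.87, 6.41, 4.27 and 3.11. Those at 1 to 5 kb gave 0.95, 1.29, 1.26, 1.40 and 1.40. The well-covered libraries gave 1.39 to 2.57 and −1.44 to −0.03 in these windows. By share of nuclear counts, the terminal peaks held 7.33% and 11.7% at time points 11 and 15. They held 2.27%, 3.23% and 3.02% at time points 13, 16 and 18, within the well-covered range of 2.11% to 4.32%. The share of nuclear counts held by all end peaks was likewise larger at time points 11 and 15 alone, at 24.1% and 31.8%. It was 15.6%, 15.3% and 14.9% at time points 13, 16 and 18, within the range of 13.8% to 18.8% of the well-covered libraries. In each of these 5 libraries a smaller share of end peaks than of the rest was at 0 counts, for example 61.5% against 67.7% at time point 15. Nuclear counts ran from 9228 to 1960004 in these libraries, against 2073443 to 12477489 in the well-covered ones, and the part of coverage in these values was not tested.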
